A study of Mus musculus with 24 samples.

Results

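The genotype effect in demyelination minus the genotype effect in naive microglia was examined gene by gene. For each gene the log2 difference between Cre+ and Cre- libraries was taken in mice fed cuprizone for 6 weeks and, separately, in naive mice, and the naive difference was subtracted from the demyelination difference. This interaction used 12 of the 24 libraries of the series, in 4 groups of 3: demyelinated Cre+, demyelinated Cre-, naive Cre+ and naive Cre-. A positive interaction means that the Cre+ minus Cre- difference was more positive in demyelinated than in naive brain. It does not say in which group the level was high.

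All libraries held total RNA of microglia that had been sorted from adult mouse brain as CD45int CD11b+ cells. Cre+ mice carried Cx3cr1creERT2, a tamoxifen-activated Cre recombinase driven from Cx3cr1, which microglia and other mononuclear phagocytes express, and are labelled as Dicer1 knockout. Cre- mice are labelled wild type. Both genotypes received tamoxifen in both states, and the naive groups had tamoxifen with no cuprizone. The other 12 libraries come from 2 remyelination conditions, in which 6 weeks of normal diet followed the cuprizone.

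Dicer cuts precursor microRNAs into mature microRNAs, which Argonaute proteins use to find and repress matching messenger RNAs. Cuprizone is a copper chelator that kills oligodendrocytes in mice. Microglia clear the myelin debris, and in that activated state they express lysosomal, lipid-handling, chemokine and interferon-response genes that are low in the resting state of naive brain.

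Library totals were 21865238 to 32708382 counts in demyelination and 19476284 to 44526670 counts in naive microglia, and no pair of libraries held identical counts. Levels are given as CPM, counts scaled to the library size after TMM normalisation, and are not corrected for gene length, so they are compared between libraries and not between genes. The deleted part of Dicer1 is not named in the labels, and a count over the whole gene cannot show the loss of a single exon. Dicer1 had 11.6, 15.7 and 17.5 CPM in demyelinated Cre+ libraries, against 23.1, 22.7 and 15.2 CPM in demyelinated Cre- libraries. In naive mice it had 21.8, 22.1 and 24.3 CPM in Cre+ libraries, against 18.6, 11.1 and 12.1 CPM in Cre- libraries. The genotypes overlapped in demyelination, whereas all 3 naive Cre+ libraries were above all naive Cre- libraries. The Dicer1 interaction was -1.17 ± 0.23 log2 (SE, adjusted p = 0.00165, edgeR quasi-likelihood test), from a demyelination effect of -0.45 (adjusted p = 0.0922) and a naive effect of 0.72 (adjusted p = 0.00151).

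Cx3cr1, the gene that drives the recombinase, encodes the fractalkine receptor. It had 104, 2312 and 89.6 CPM in demyelinated Cre+ libraries, against 5277, 5318 and 6139 CPM in demyelinated Cre- libraries. In the naive state it had 227, 4432 and 4571 CPM in Cre+ libraries, against 9273, 9692 and 12250 CPM in Cre- libraries. Every Cre+ library was below every Cre- library of its state, but the Cre+ libraries were not alike. Demyelinated Cre+ replicates 1 and 3 and naive Cre+ replicate 1 had 1.87%, 1.61% and 2.18% of the Cre- mean of their state, against 41.5% to 43.9% in the other 3 Cre+ libraries. What sets these 3 low-Cx3cr1 libraries apart was not tested, and the counts below are also given without them. That leaves 1 demyelinated Cre+ library, which is then assumed to vary like the other groups. The Cx3cr1 interaction was -0.98 ± 1.34 log2 (adjusted p = 0.695), 0.02 without the 3 libraries (adjusted p = 0.982) and -4.09 without demyelinated Cre+ replicate 2 (adjusted p = 0.0118).

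Many genes had a genotype effect that differed between demyelination and the naive state. Of 17579 genes tested, the interaction was called for 2769 (15.8%) at an adjusted p below 0.05. It was positive for 1401 genes (7.97%) and negative for 1368 (7.78%). That split moved with the scaling, since DESeq2 size factors in the same fit gave 1794 positive and 1069 negative genes, the DESeq2 Wald test gave 2055 and 1260, and the fit with no filter on low counts gave 1700 and 1018. Without the 3 low-Cx3cr1 libraries 1631 genes were called, of which 1473 were among the 2769.

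The genotype effect itself was called for 1612 genes in demyelination (9.17%) and for 4982 genes in naive microglia (28.3%). In demyelination 1001 genes were higher (5.69%) and 611 lower (3.48%) in Cre+ libraries, and in naive microglia 2580 were higher (14.7%) and 2402 lower (13.7%). The demyelination count rested on single libraries: it was 417 without Cre+ replicate 1, 803 without Cre+ replicate 3, 941, 826 and 810 without Cre- replicates 1, 2 and 3, and 81 without the 3 low-Cx3cr1 libraries. Calls in demyelination were thus fewer and less stable than in naive microglia, and an effect called in the naive state alone is not by that shown to be absent in demyelination.

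Most interaction genes had a called effect in the naive state only. Of the 2769, the demyelination effect alone was called for 347 (12.5%), the naive effect alone for 1972 (71.2%), neither for 278 (10%), both with one sign for 35 (1.26%) and both with opposite signs for 137 (4.95%). Across the 10433 genes with a mean log2 CPM of at least 2 over the 12 libraries, the demyelination and naive effects, which share no library, correlated weakly (Pearson r = 0.25, Spearman rho = 0.14, across genes that are not independent). At the edge of the threshold, Zfp512b was just inside with an interaction of -0.65 log2 (adjusted p = 0.0499), and Ets2 with 0.53, Lilra5 with 0.85 and Rrp9 with 0.46 log2 were just outside (adjusted p = 0.05 each).

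**Figure D1:**
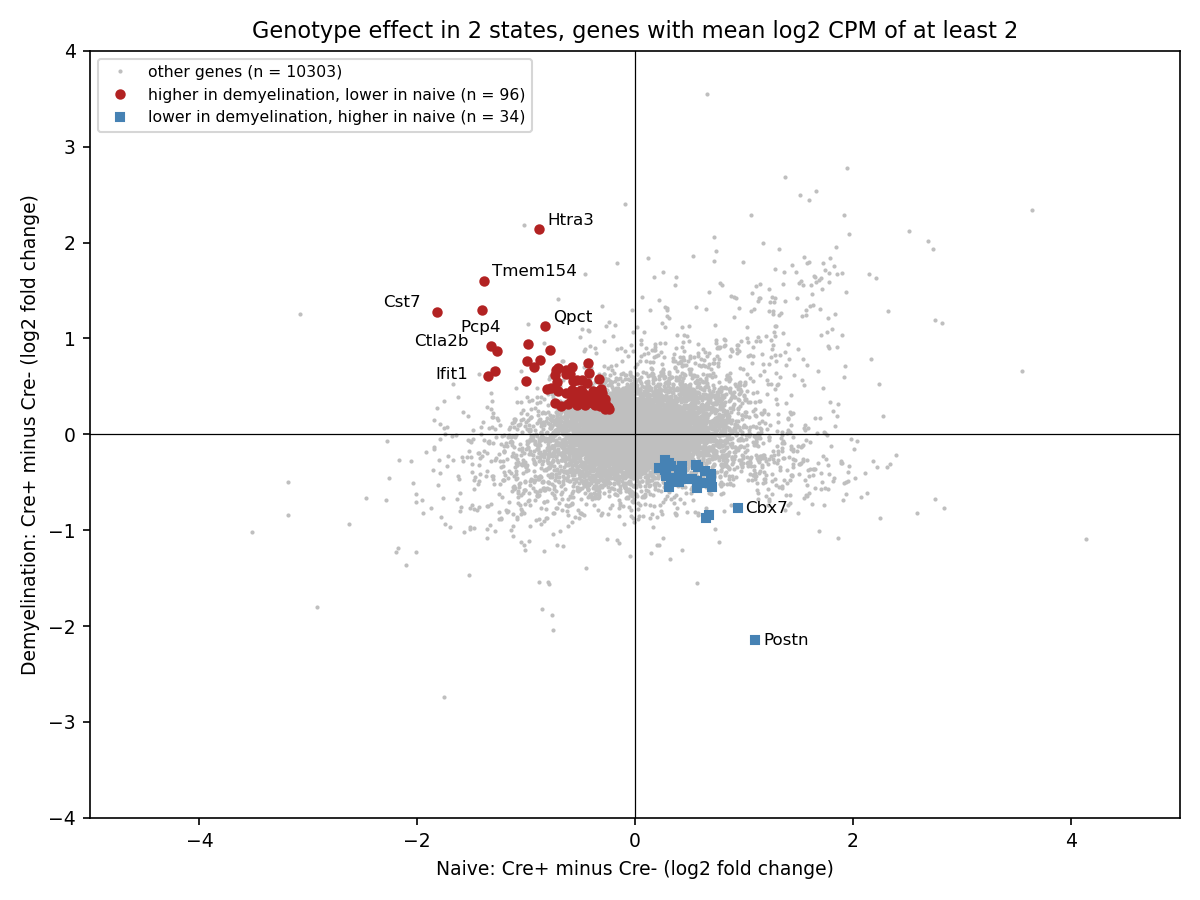
Genotype effect (Cre+ minus Cre-, log2 fold change) in demyelination on the vertical axis against the naive effect on the horizontal axis, one point per gene with a mean log2 CPM of at least 2 over the 12 libraries. Red circles are the 96 opposite genes at that level that were higher in demyelinated and lower in naive Cre+ microglia, blue squares the 34 with the reverse pattern, and grey points the other 10303 genes; Htra3, Tmem154 and Cst7 lie far from the origin at the upper left and Postn, with -2.15 log2 in demyelination and 1.10 log2 in the naive state, at the lower right.

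Opposite genotype effects, called in both states with different signs, were found in 137 genes (0.779% of those tested). They were 18.1% of the 758 genes called in both states; the other 621 had one sign. In 102 genes (0.58%) the Cre+ libraries were higher in demyelination and lower in the naive state, and in 35 (0.199%) they were lower in demyelination and higher in the naive state. The genotypes did not overlap in either state for 94 of the 102 and 26 of the 35. That pattern of non-overlap, with no test, was found in 545 (3.1%) and 325 (1.85%) of all genes. The 102 and the 35 were chosen by their effects in these same libraries, so their larger shares follow from the choice and are no separate support. All 137 also had a called interaction.

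The effects behind this class were mostly small. Among the 102 genes the size of the demyelination effect ran from 0.26 to 2.52 log2 and that of the naive effect from 0.23 to 2.34 log2, with 9 and 12 genes beyond 2-fold and 7 beyond 2-fold in both. Among the 35 genes the sizes ran from 0.27 to 2.15 log2 in demyelination and from 0.22 to 1.11 log2 in the naive state, with 1 gene, Postn, beyond 2-fold in both. The 102 included 98 protein-coding genes and the 35 included 33. Their median levels were alike, at 5.88 and 5.82 log2 CPM, but the median exon length was 2561 bases in the 102 and 7731 bases in the 35, against 3690 bases over all genes tested.

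The level in Cre- libraries also differed between the states for many of these genes. Of the 102, the Cre- mean was higher in demyelination than in the naive state for 89, and the Cre+ mean for 102. Of the 35, the Cre- mean was higher in demyelination for 17 and the Cre+ mean for 1, and 16 of them had a Cre+ mean that was lower and a Cre- mean that was higher in demyelination than in the naive state. These orders of means were not tested.

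Few of the opposite genes kept every call when libraries were left out. The count of opposite genes was 25, 88, 66, 61, 45 and 79 without demyelinated Cre+ replicate 1, demyelinated Cre+ replicate 3, demyelinated Cre- replicates 1, 2 and 3, and naive Cre+ replicate 3. The 14 genes that kept all their calls in each of the 12 fits with a library left out were Cst7, Ctla2b, Hmgn3, Qpct, Galns, Pxdc1, Prdx4, Ndufa1, Nme1, Ctsd, Syngr1 and Ldha of the 102, and Cbx7 and Postn of the 35. Without the 3 low-Cx3cr1 libraries 5 genes kept the calls, namely Prdx4, Postn, Htra3, Ctla2b and Syngr1. Without these libraries 125 of the 137 still had a called interaction, in a fit that shares the other 9 libraries with the one that chose them. In demyelination the Cre+ library nearest to the Cre- libraries was replicate 1 for 5 of the 102 genes, replicate 2 for 53 and replicate 3 for 44, against 20.5%, 49.5% and 30% of all genes with a positive demyelination effect.

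Cst7 had the largest positive interaction of these 14. It encodes cystatin F, an inhibitor of lysosomal cathepsins that microglia express in disease and demyelination, and lies at chr2:150570415-150578944 (GRCm38). It had 2797, 1968 and 2434 CPM in demyelinated Cre+ libraries, against 1093, 1136 and 743 CPM in demyelinated Cre- libraries. Without cuprizone it had 5.71, 4.83 and 4.31 CPM in Cre+ libraries, against 21.6, 17.0 and 13.8 CPM in Cre- libraries. The genotypes did not overlap in either state, with Cre+ on top in demyelination and at the bottom in the naive state. The interaction was 3.09 ± 0.33 log2 (adjusted p = 1.13e-05), from effects of 1.28 log2 in demyelination (adjusted p = 0.00144) and -1.82 log2 in the naive state (adjusted p = 2.63e-05).

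Other genes of this direction with large effects in both states covered a range of roles. Htra3, a secreted serine protease (chr5:35652023-35679782), had 148, 55.4 and 109 CPM in demyelinated Cre+ libraries, against 25.1, 25.6 and 20.4 CPM in demyelinated Cre- libraries. Its naive level was 4.07, 7.83 and 6.19 CPM in Cre+ libraries, against 11.8, 10.3 and 11.9 CPM in Cre- libraries. Both low-Cx3cr1 libraries of demyelination were the higher ones, and the interaction of 3.02 ± 0.38 log2 (adjusted p = 9.86e-05) was 1.98 without the 3 low-Cx3cr1 libraries. Tmem154, a transmembrane protein gene (chr3:84666192-84704575), had 53.3, 20.5 and 36.6 CPM in demyelinated Cre+ libraries, against 12.7, 14.3 and 9.60 CPM in demyelinated Cre- libraries. Among naive mice the level was 0.842, 2.22 and 3.88 CPM in Cre+ libraries, against 6.31, 4.35 and 7.85 CPM in Cre- libraries. It showed the same order of the demyelinated Cre+ libraries as Htra3, and its interaction of 2.98 ± 0.56 log2 (adjusted p = 0.00202) was 1.85 without the 3 low-Cx3cr1 libraries. Htra3 and Tmem154 kept their opposite calls in 8 and 7 of the 12 fits with a library left out.

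Pcp4 and Hmgn3 were more even among the demyelinated Cre+ libraries. Pcp4, a regulator of calmodulin (chr16:96467606-96525793), had 14.7, 15.2 and 15.3 CPM in demyelinated Cre+ libraries, against 7.84, 6.202 and 4.446 CPM in demyelinated Cre- libraries. Naive microglia had 1.92, 1.16 and 2.27 CPM in Cre+ libraries, against 4.501, 5.353 and 4.058 CPM in Cre- libraries. Its Cre+ libraries differed little in demyelination, and the interaction was 2.69 ± 0.52 log2 (adjusted p = 0.00175). Pcp4 kept its opposite calls in 7 of the 12 fits with a library left out. Hmgn3, a nucleosome-binding protein gene (chr9:83109948-83146685), had 30.1, 31.7 and 31.8 CPM in demyelinated Cre+ libraries, against 16.6, 19.6 and 15.2 CPM in demyelinated Cre- libraries. Naive levels of the gene were 1.78, 2.61 and 4.12 CPM in Cre+ libraries, against 6.09, 6.25 and 8.22 CPM in Cre- libraries. The genotypes were apart in both states, and the interaction was 2.14 ± 0.30 log2 (adjusted p = 6.72e-05).

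Ctla2b and Qpct were among the 14 steady genes. Ctla2b, a gene for a cathepsin-inhibitor-like protein with a near-identical neighbour, Ctla2a, between which reads may be split (chr13:60895350-60897447), had 140.0, 113 and 118 CPM in demyelinated Cre+ libraries, against 71.9, 67.4 and 56.6 CPM in demyelinated Cre- libraries. In naive mice it had 7.72, 10.3 and 10.2 CPM in Cre+ libraries, against 27.3, 23.1 and 21.1 CPM in Cre- libraries. These groups were well apart, and the interaction was 2.25 ± 0.20 log2 (adjusted p = 2.71e-07). Qpct, the enzyme that forms N-terminal pyroglutamate (chr17:79051906-79090378), had 38.6, 31.1 and 36.1 CPM in demyelinated Cre+ libraries, against 18.3, 16.9 and 13.4 CPM in demyelinated Cre- libraries. In the naive state it had 2.01, 3.38 and 2.19 CPM in Cre+ libraries, against 4.17, 5.11 and 4.36 CPM in Cre- libraries. Its interaction was 1.95 ± 0.26 log2 (adjusted p = 4.17e-05).

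**Figure D2:**
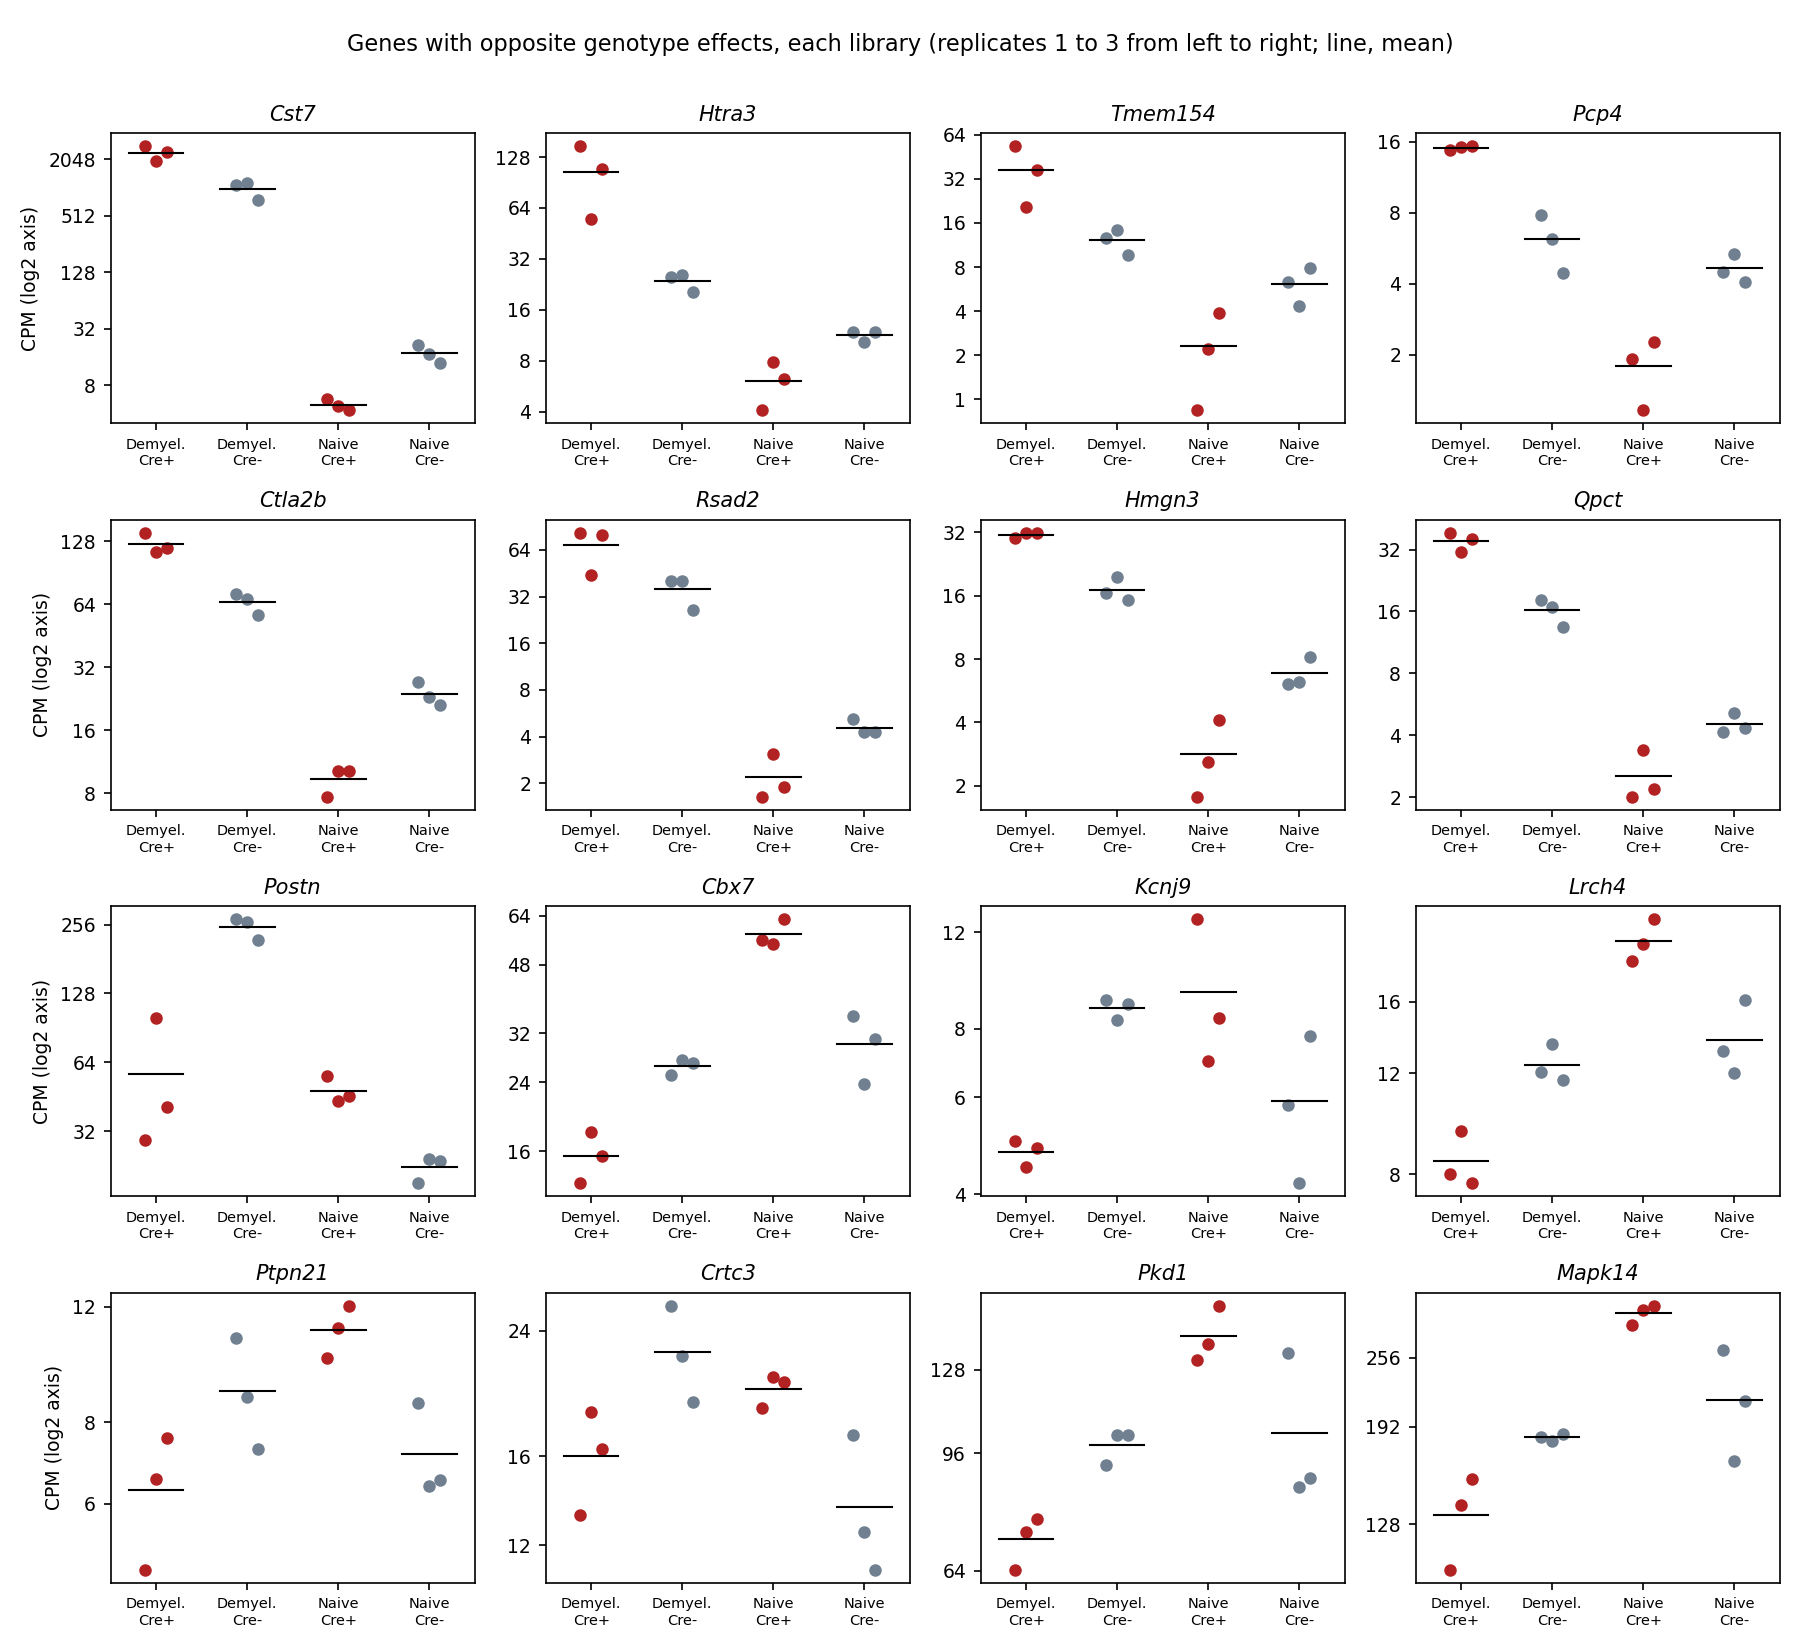
Level of 16 genes with opposite genotype effects in each library, in CPM on log2 vertical axes, for demyelinated Cre+, demyelinated Cre-, naive Cre+ and naive Cre- microglia. Red points are Cre+ and grey points Cre- libraries, with replicates 1 to 3 from left to right and the group mean as a line; the upper 8 genes are higher in Cre+ in demyelination and lower in Cre+ in the naive state, as Cst7 with 2797, 1968 and 2434 against 1093, 1136 and 743 CPM, and the lower 8 show the reverse.

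Among the 35 genes of the reverse direction, Postn had the largest effects. It encodes periostin, a secreted matrix protein, and lies at chr3:54361109-54391037. It had 29.3, 99.7 and 41.0 CPM in demyelinated Cre+ libraries, against 270.2, 263 and 220.2 CPM in demyelinated Cre- libraries. Without cuprizone it had 55.5, 43.4 and 45.5 CPM in Cre+ libraries, against 18.9, 24.1 and 23.7 CPM in Cre- libraries. Its level was highest in the demyelinated Cre- libraries, and demyelinated Cre+ replicate 2 was the highest of the Cre+ libraries of either state. The interaction was -3.25 ± 0.44 log2 (adjusted p = 0.000242), from effects of -2.15 log2 in demyelination (adjusted p = 0.000692) and 1.10 log2 in the naive state (adjusted p = 0.0128).

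Cbx7, a Polycomb chromobox protein gene (chr15:79915807-79971119), had 13.3, 17.9 and 15.6 CPM in demyelinated Cre+ libraries, against 24.99, 27.30 and 26.96 CPM in demyelinated Cre- libraries. Its naive level was 55.5, 54.2 and 62.7 CPM in Cre+ libraries, against 35.5, 23.7 and 31.0 CPM in Cre- libraries. The genotypes were apart in both states, with an interaction of -1.71 ± 0.19 log2 (adjusted p = 4.92e-06). Mapk14, the p38-alpha stress kinase (chr17:28691329-28748406), had 106, 139 and 155 CPM in demyelinated Cre+ libraries, against 184, 181 and 187 CPM in demyelinated Cre- libraries. Among naive mice the level was 294, 312 and 318 CPM in Cre+ libraries, against 265, 167 and 214 CPM in Cre- libraries. The Cre+ libraries were again below Cre- in demyelination and above in the naive state, with an interaction of -0.99 ± 0.18 log2 (adjusted p = 0.000841).

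The remaining genes named for their effects in both states were Kcnj9, Lrch4, Ptpn21, Crtc3 and Pkd1. Kcnj9, an inwardly rectifying potassium channel gene, had an interaction of -1.52 ± 0.30 log2 (adjusted p = 0.00145), and its naive groups overlapped. Lrch4 had -1.13 ± 0.23 log2, a call that was lost without the 3 low-Cx3cr1 libraries. Ptpn21, a protein tyrosine phosphatase gene, had -1.15 ± 0.22 log2 (adjusted p = 0.00143), and its demyelinated groups overlapped. Crtc3, a coactivator of CREB, had -1.05 ± 0.20 log2, and Pkd1, the polycystin-1 gene, had -0.96 ± 0.18 log2 (adjusted p = 0.00125 and 0.00126). After a correction for exon length and GC content, the Pkd1 interaction was -0.63 log2 and its naive effect was 0.25 log2, no longer called (adjusted p = 0.0644). Kcnj9, Lrch4, Ptpn21, Crtc3 and Pkd1 kept their opposite calls in 9, 7, 6, 8 and 8 of the 12 fits with a library left out.

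Of the other genes among the 35, Rela, Foxp1 and Bcl2l11 are named here after their values were seen. Rela, the p65 subunit of NF-kB, had 89.5, 91.7 and 109 CPM in demyelinated Cre+ libraries, against 127, 127 and 121 CPM in demyelinated Cre- libraries. Naive levels of the gene were 158, 173 and 189 CPM in Cre+ libraries, against 153, 115 and 126 CPM in Cre- libraries. Its interaction was -0.77 ± 0.15 log2 (adjusted p = 0.00126). Foxp1, a forkhead transcription factor, had -0.64 log2, and Bcl2l11, the pro-apoptotic BIM, had -0.66 log2. Rela, Foxp1 and Bcl2l11 kept their opposite calls in 7, 4 and 6 of the 12 fits with a library left out.

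Called interactions of interferon-response genes were positive. Of 42 listed genes tested, the interaction was called for 15, or 35.7%, against 15.8% of all genes tested, and it was positive in each of the 15, against 7.97% of all genes that were called positive, and the list's median interaction was 0.61 log2, against 0.00 over all genes. The median effects of the list were 0.27 log2 in demyelination and -0.29 log2 in the naive state. In demyelination 12 listed genes were higher and 1 lower in Cre+ libraries, where 5.69% and 3.48% of all genes were. In naive microglia 2 were higher and 14 lower, where 14.7% and 13.7% of all genes were. With only the 12 naive and demyelination libraries in the fit, 2 were called higher in demyelination and 12 lower in the naive state. With the replicate number of each state added to the fit, these counts were 7 and 12. Without the 3 low-Cx3cr1 libraries 6 of the 42 were called in the interaction. The 15 called genes included 5 of the opposite genes: Ifit1, Ifit3, Ifit3b, Isg15 and Rsad2.

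Interferon-response genes are switched on through the interferon-stimulated response element, a promoter motif bound by the ISGF3 and IRF factors. The motif was searched as GAAANNGAAA on both strands in RefSeq promoters (GRCm38.p6) from 250 bases before to 50 bases after the start site, where overlapping matches were allowed. It was present in 3.44% of all 32851 promoters, in 3.95% of the 11437 tested genes that had one, in 64.5% of the 31 interferon-list genes that had one, and in 66.7% of the 12 among these with a called interaction. Of the opposite genes, 8 of 79 with a promoter of this kind (10.1%) held it in the direction of Cst7 and 1 of 31 (3.23%) in the direction of Postn. The 8 include Ifit1, Ifit3, Ifit3b, Isg15 and Rsad2 of the interferon list, so the 10.1% is not separate from the share of that list. The promoters of 4 opposite interferon genes are shown 5′ to 3′ on the strand of the gene, because these 4 genes had opposite genotype effects, with the motif in capitals. They lie at chr19:34640639-34640938 on the plus strand (Ifit1), chr19:34583279-34583578 on the plus strand (Ifit3), chr4:156200769-156201068 on the minus strand (Isg15) and chr12:26456403-26456702 on the minus strand (Rsad2).

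Ifit1: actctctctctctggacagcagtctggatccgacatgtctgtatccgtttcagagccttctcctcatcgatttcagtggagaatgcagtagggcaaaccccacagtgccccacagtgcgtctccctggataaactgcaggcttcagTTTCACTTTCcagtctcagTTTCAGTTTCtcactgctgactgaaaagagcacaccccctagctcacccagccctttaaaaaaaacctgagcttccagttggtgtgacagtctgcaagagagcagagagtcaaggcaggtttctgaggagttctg
Ifit3: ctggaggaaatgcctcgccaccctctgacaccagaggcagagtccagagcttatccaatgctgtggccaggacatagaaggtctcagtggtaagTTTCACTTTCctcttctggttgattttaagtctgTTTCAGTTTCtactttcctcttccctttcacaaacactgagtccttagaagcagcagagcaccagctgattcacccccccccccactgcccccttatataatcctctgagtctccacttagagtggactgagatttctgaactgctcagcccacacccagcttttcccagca
Isg15: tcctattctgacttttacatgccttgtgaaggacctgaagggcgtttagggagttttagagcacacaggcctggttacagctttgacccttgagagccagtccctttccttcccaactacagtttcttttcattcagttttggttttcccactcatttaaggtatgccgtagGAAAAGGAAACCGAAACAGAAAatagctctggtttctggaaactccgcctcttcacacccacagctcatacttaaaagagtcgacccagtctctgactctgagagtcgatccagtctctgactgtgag
Rsad2: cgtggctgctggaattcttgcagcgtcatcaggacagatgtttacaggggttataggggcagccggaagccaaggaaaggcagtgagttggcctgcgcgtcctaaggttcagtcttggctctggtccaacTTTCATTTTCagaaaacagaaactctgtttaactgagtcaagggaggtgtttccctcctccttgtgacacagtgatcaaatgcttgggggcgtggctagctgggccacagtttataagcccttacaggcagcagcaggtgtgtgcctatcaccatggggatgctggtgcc

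Ifit1 and Ifit3 each held 2 matches, Isg15 held 3 that overlap, and Rsad2 held 1. A match is a description of the sequence and was not measured as a site here.

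Rsad2, which encodes the antiviral enzyme viperin, had the steadiest opposite call of these, kept in 11 of the 12 fits with a library left out. It had 82.4, 44.2 and 79.4 CPM in demyelinated Cre+ libraries, against 40.6, 40.4 and 26.3 CPM in demyelinated Cre- libraries. In naive mice it had 1.64, 3.09 and 1.89 CPM in Cre+ libraries, against 5.16, 4.27 and 4.26 CPM in Cre- libraries. Cre+ replicate 2, the demyelinated library with the higher Cx3cr1, was close to the Cre- libraries, and the interaction of 1.93 ± 0.33 log2 (adjusted p = 0.000637) was 1.21 without the 3 low-Cx3cr1 libraries. Ifit1, which binds foreign RNA, had 28.6, 22.8 and 37.2 CPM in demyelinated Cre+ libraries, against 19.2, 21.2 and 15.6 CPM in demyelinated Cre- libraries. In the naive state it had 2.48, 2.10 and 2.23 CPM in Cre+ libraries, against 3.40, 5.49 and 7.46 CPM in Cre- libraries. The groups did not overlap in either state, and the interaction was 1.95 ± 0.31 log2 (adjusted p = 0.000275). Ifit1 kept its opposite calls in 6 of the 12 fits with a library left out.

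Isg15, a ubiquitin-like modifier, had 40.4, 32.5 and 41.0 CPM in demyelinated Cre+ libraries, against 24.99, 28.07 and 21.00 CPM in demyelinated Cre- libraries. Without cuprizone it had 3.93, 2.49 and 2.42 CPM in Cre+ libraries, against 5.87, 4.27 and 4.55 CPM in Cre- libraries. Its interaction was 1.36 ± 0.27 log2 (adjusted p = 0.00158), and its opposite calls were kept in 7 of the 12 fits with a library left out. Ifit3b, whose reads cannot be told apart with certainty from those of its near copy Ifit3, had an interaction of 1.76 ± 0.30 log2 (adjusted p = 0.000547), which was 1.15 without the 3 low-Cx3cr1 libraries. Other listed genes had a called effect in one state. Ifitm3, which restricts viral entry, had an effect of -0.03 log2 in demyelination, not called, and -1.17 log2 in the naive state, while Oasl1 had 1.08 log2 in demyelination (adjusted p = 0.0215) and -0.42 log2 in the naive state, not called.

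Genes of the disease-associated microglia programme, which microglia turn on around plaques and myelin damage, had called interactions of positive sign only. Of 25 tested, 12 had one, or 48%, against 15.8% of all genes, and 13 did not pass the test, with a median of 0.81 log2 over the list. The list's median effect was 0.08 log2 in demyelination and -0.61 log2 in the naive state. In demyelination 5 genes were higher and 1 lower in Cre+ libraries, where 5.69% and 3.48% of all genes were. In naive microglia 1 was higher and 14 were lower, where 14.7% and 13.7% of all genes were. Without the 3 low-Cx3cr1 libraries 11 were called, and 11 after a correction for exon length and GC content. For Ctsz and Ch25h the demyelination effect alone was called, for 7 of the 12 the naive effect alone, for Apoe both with one sign, and Cst7 and Ctsd had opposite effects.

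Cd63, a tetraspanin of late endosomes, had 2516, 2840 and 2453 CPM in demyelinated Cre+ libraries, against 2800, 2685 and 2085 CPM in demyelinated Cre- libraries. Its naive level was 172, 164 and 166 CPM in Cre+ libraries, against 501, 456 and 451 CPM in Cre- libraries. The demyelinated groups overlapped and the naive groups were far apart, with an interaction of 1.53 ± 0.17 log2 (adjusted p = 4.92e-06). Apoe, the main lipid carrier of glia, had 27980, 42020 and 32180 CPM in demyelinated Cre+ libraries, against 57570, 61770 and 45250 CPM in demyelinated Cre- libraries. Among naive mice the level was 215, 192 and 238 CPM in Cre+ libraries, against 959, 759 and 781 CPM in Cre- libraries. Cre+ was lower in both states, by more in the naive state, with effects of -0.69 log2 in demyelination and -1.95 log2 in the naive state and an interaction of 1.27 ± 0.29 log2 (adjusted p = 0.00647). Lpl, lipoprotein lipase, had an interaction of 0.98 ± 0.26 log2 (adjusted p = 0.0143), with effects of -0.38 log2 in demyelination, not called, and -1.36 log2 in the naive state.

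Cytokine and chemokine genes also had mostly positive interactions. Of 20 tested, 11 had a called positive interaction and 1, Tgfb1, a negative one, or 60% in all, against 15.8% of all genes, with a median of 1.04 log2. Their median effects were 0.10 log2 in demyelination and -0.63 log2 in the naive state, and without the 3 low-Cx3cr1 libraries 8 were called, each positive. Ccl6, a macrophage chemokine of mice, had 2074, 2555 and 2066 CPM in demyelinated Cre+ libraries, against 1944, 2024 and 1552 CPM in demyelinated Cre- libraries. Naive microglia had 77.0, 104 and 73.0 CPM in Cre+ libraries, against 296, 344 and 259 CPM in Cre- libraries, and its interaction was 2.10 ± 0.28 log2 (adjusted p = 0.0001). Ccl3 and Ccl4, macrophage inflammatory chemokines, had interactions of 1.66 and 1.63 log2, with demyelination effects of -0.02 and -0.01 log2, not called, and naive effects of -1.68 and -1.64 log2.

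A smaller set of chemokines was higher in demyelinated Cre+ libraries. Ccl12, a ligand of CCR2 in mice, had 637, 351 and 518 CPM in demyelinated Cre+ libraries, against 227, 244 and 197 CPM in demyelinated Cre- libraries. Naive levels of the gene were 79.3, 101 and 98.2 CPM in Cre+ libraries, against 120.3, 94.7 and 115 CPM in Cre- libraries. The naive groups overlapped and the demyelinated groups did not, with an interaction of 1.42 ± 0.24 log2 (adjusted p = 0.000637) that was 0.87 without the 3 low-Cx3cr1 libraries. Ccl2, the main monocyte attractant, had a demyelination effect of 1.64 log2 and an interaction of 1.27 log2. Ccl9 had an interaction of 0.89 ± 0.18 log2 (adjusted p = 0.00202) from a demyelination effect of 0.67 log2. Of the chemokine receptors, 2 of 10 were called in the interaction, a share of 20% against 15.8% of all genes: Ccr1 with 2.5 ± 0.51 log2 (adjusted p = 0.00368) and Ackr3 with 1.93 ± 0.46 log2 (adjusted p = 0.00581), both with a called naive effect alone.

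Lysosomal genes had 10 positive calls and 1 negative call in the interaction among 35 tested, or 31.4% against 15.8% of all genes, with a median of 0.23 log2. The positive count was 7 without the 3 low-Cx3cr1 libraries, 6, 6, 6 and 6 without demyelinated Cre+ replicate 1, demyelinated Cre+ replicate 3, demyelinated Cre- replicate 1 and naive Cre+ replicate 2, and 5 without demyelinated Cre- replicate 3. Ctsd and Grn were among those with opposite effects. Ctsd, the aspartic protease cathepsin D, had 34200, 31570 and 33330 CPM in demyelinated Cre+ libraries, against 24560, 25680 and 22070 CPM in demyelinated Cre- libraries. In naive mice it had 8357, 9626 and 10090 CPM in Cre+ libraries, against 15330, 14670 and 15940 CPM in Cre- libraries. The genotypes were apart in both states, and the interaction was 1.17 ± 0.13 log2 (adjusted p = 5.97e-06). Ctsb, cathepsin B, had 1.02 ± 0.14 log2 (adjusted p = 6.61e-05), and Grn, the precursor of granulins, had 0.74 ± 0.15 log2 (adjusted p = 0.00188). Grn kept its opposite calls in 7 of the 12 fits with a library left out.

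Cholesterol synthesis genes had called interactions of one sign. Of 23 cholesterol biosynthesis genes, 7 were called in the interaction, each positive, or 30.4% against 15.8% of all genes, with a list median of 0.51 log2, from median effects of 0.17 log2 in demyelination and -0.40 log2 in the naive state. The count was 7 without the 3 low-Cx3cr1 libraries, and 4 without naive Cre+ replicate 3 or without naive Cre- replicate 2. Sc5d, an enzyme late in that pathway, had 44.98, 53.01 and 48.81 CPM in demyelinated Cre+ libraries, against 43.2, 41.6 and 45.8 CPM in demyelinated Cre- libraries. In the naive state it had 27.5, 28.1 and 27.6 CPM in Cre+ libraries, against 48.2, 49.1 and 48.7 CPM in Cre- libraries. Its interaction was 0.98 ± 0.15 log2 (adjusted p = 0.00015). Stard4, a sterol transporter, had 2.09 ± 0.42 log2 (adjusted p = 0.00188) and Ebp, the sterol isomerase, 0.51 ± 0.13 log2 (adjusted p = 0.00997).

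Of 19 lipid efflux and storage genes, 5 had a called positive interaction and 1, Soat1, a negative one, or 31.6% in all against 15.8% of all genes, with a list median of 0.09 log2. Plin2, which coats lipid droplets, had 303, 249.8 and 269.7 CPM in demyelinated Cre+ libraries, against 262, 259 and 203 CPM in demyelinated Cre- libraries. Without cuprizone it had 16.2, 20.2 and 18.0 CPM in Cre+ libraries, against 49.2, 49.6 and 58.3 CPM in Cre- libraries. The demyelinated groups overlapped and the naive ones did not, with an interaction of 1.72 ± 0.19 log2 (adjusted p = 4.92e-06). Plin3, another droplet coat gene, had 1.90 ± 0.22 log2 (adjusted p = 7.38e-06). Phagocytosis and complement genes were mixed, with 9 positive and 3 negative calls among 27, or 44.4% against 15.8% of all genes: Tyrobp, the TREM2 adaptor, had 0.91 log2, C1qb had 0.55 and C1qc had 0.49 log2, while the integrin genes Itgav and Itgb5 had -0.84 and -2.66 log2.

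**Figure D3:**
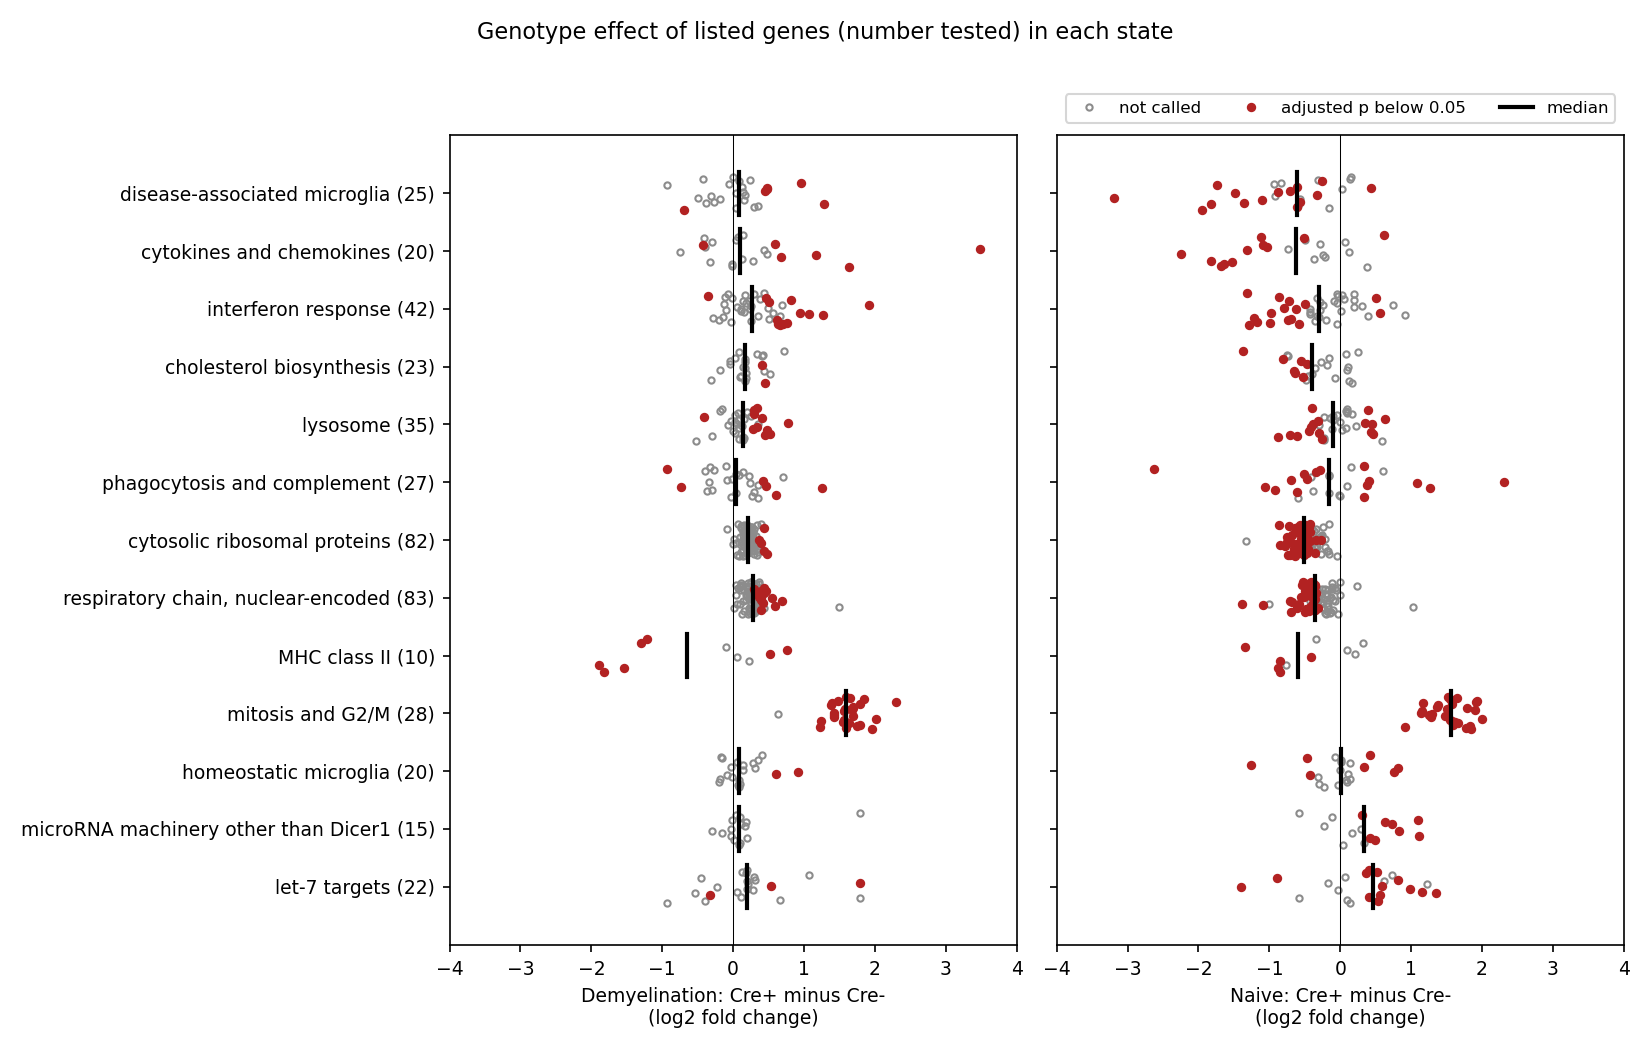
Genotype effect (Cre+ minus Cre-, log2 fold change on the horizontal axes) of the genes of 13 lists in demyelination, left, and in the naive state, right; filled red points passed an adjusted p below 0.05, open points did not, and black bars are list medians. The medians of the disease-associated, cytokine, interferon, cholesterol, ribosomal protein and respiratory chain lists lie above 0 in demyelination and below 0 in the naive state, as 0.27 and -0.29 log2 for the interferon list, whereas those of mitosis genes lie at 1.59 and 1.56 log2.

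Enzymes of glycolysis were counted because 5 of them appeared among the opposite genes, so the list was written after its values were seen and its count supports nothing beyond a description. Of 18 genes, 7 had a called interaction, each positive, where 7.97% of all genes were called positive. In demyelination 9 were higher and 2 lower in Cre+ libraries, where 5.69% and 3.48% of all genes were. In naive microglia 1 was higher and 10 were lower, where 14.7% and 13.7% of all genes were. The 5 opposite ones were Gapdh, Eno1, Ldha, Tpi1 and Pgk1, which kept their opposite calls in 8, 4, 12, 7 and 7 of the 12 fits with a library left out. Ldha, which makes lactate, had 1205, 1103 and 1114 CPM in demyelinated Cre+ libraries, against 781, 814 and 722 CPM in demyelinated Cre- libraries. Its naive level was 265, 259 and 247 CPM in Cre+ libraries, against 355, 392 and 333 CPM in Cre- libraries. The genotypes were apart in both states, with an interaction of 1.05 ± 0.13 log2 (adjusted p = 1.13e-05). Gapdh has many near-identical pseudogene copies, and its interaction of 0.91 log2 is uncertain for that reason.

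Genes for ribosomal proteins and for nuclear-encoded respiratory chain subunits had positive interactions with few exceptions of sign. Of 82 cytosolic ribosomal protein genes, 50 had a called interaction, or 61% against 15.8% of all genes, each positive, with a median of 0.70 log2. Most ribosomal protein genes have near-identical pseudogene copies, and the labels do not say how reads with several matches were counted, so single genes are uncertain. Their effects were positive in demyelination and negative in the naive state for 81 of the 82, against 3941 of all 17579 genes, with medians of 0.21 and -0.51 log2. In demyelination 5 of the 82 were called, each higher in Cre+ libraries, a share near the 5.69% of all genes that were called higher. In the naive state 54 were called, each lower, where 13.7% of all genes were called lower. The count of 50 was 30, 25 and 79 without naive Cre- replicates 1, 2 and 3, 28 without naive Cre+ replicate 3, 33 without demyelinated Cre+ replicate 1, 30 without demyelinated Cre- replicate 3, and 26 without the 3 low-Cx3cr1 libraries. Rps27l, a close relative of Rps27, had 145, 136 and 126 CPM in demyelinated Cre+ libraries, against 105, 105 and 89.1 CPM in demyelinated Cre- libraries. Among naive mice the level was 34.8, 34.5 and 30.5 CPM in Cre+ libraries, against 48.1, 58.4 and 38.5 CPM in Cre- libraries. Its interaction was 0.98 ± 0.18 log2 (adjusted p = 0.000742), and 0.64 log2 after a correction for exon length and GC content.

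Of 83 respiratory chain genes, 61 had a called positive interaction, or 73.5% against 7.97% of all genes, with a median of 0.61 log2 from median effects of 0.28 log2 in demyelination and -0.35 log2 in the naive state. The signs were positive in demyelination and negative in the naive state for 80 of the 83. In demyelination 16 were called, each higher, where 5.69% of all genes were called higher. In the naive state 43 were called, each lower, where 13.7% of all genes were called lower. Without the 3 low-Cx3cr1 libraries 41 were called in the interaction. Ndufa1, a small subunit of complex I, had 278, 238 and 233 CPM in demyelinated Cre+ libraries, against 169.5, 164 and 132 CPM in demyelinated Cre- libraries. Naive microglia had 35.9, 34.5 and 32.3 CPM in Cre+ libraries, against 53.3, 65.1 and 48.9 CPM in Cre- libraries. The genotypes did not overlap in either state, and the interaction was 1.39 ± 0.20 log2 (adjusted p = 0.000134). Ndufb8 and Ndufb9, of the same complex, also had opposite effects, with interactions of 0.76 and 0.87 log2.

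Exon length moved with the interaction. Across the 10433 genes with a mean log2 CPM of at least 2, Spearman's rho of exon length with the interaction was -0.36, with the demyelination effect -0.12 and with the naive effect 0.32. The median interaction was 0.38 log2 in the decile of shortest genes (median 1293 bases) and -0.23 log2 in the decile of longest genes (median 12513 bases). GC content had a rho of -0.06 with the interaction. With a correction for exon length and GC content in each library, 2475 genes were called, of which 2019 were among the 2769, and 85 of the 137 opposite genes kept their calls. After that correction 38 ribosomal protein genes (median 0.52 log2) and 41 respiratory chain genes (median 0.41 log2) were called, each positive, and 13 interferon, 10 cytokine, 10 lysosomal and 8 cholesterol genes. The part of exon length in these results was not tested beyond that correction.

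**Figure D4:**
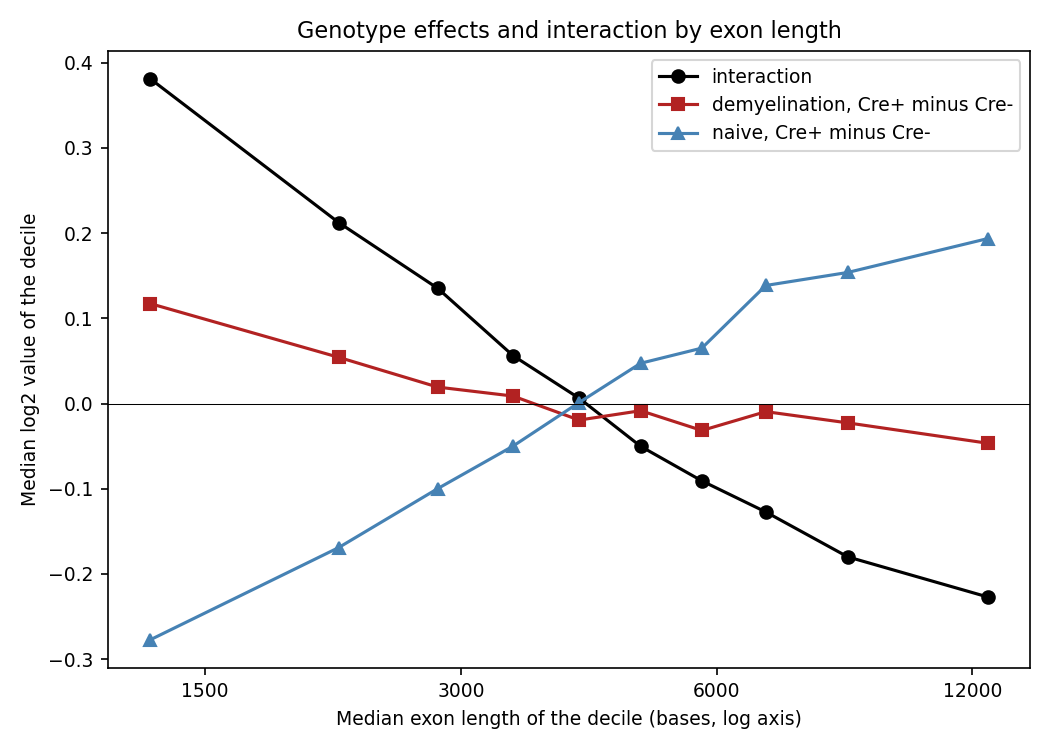
Median interaction (black circles), demyelination effect (red squares) and naive effect (blue triangles), in log2 units, of genes in deciles of exon length, plotted at the median exon length of each decile in bases on a log axis. The interaction runs from 0.38 log2 in the shortest decile to -0.23 log2 in the longest, while the demyelination effect runs from 0.12 to -0.05 log2 and the naive effect from -0.28 to 0.19 log2.

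Genes of MHC class II presentation did not move together. Of 10 tested, H2-DMa, H2-DMb1, H2-Oa and H2-Ob had a called positive interaction and Cd74 a called negative one, or 50% in all beside 15.8% of all genes, against 2 positive and 1 negative without the 3 low-Cx3cr1 libraries. Cd74, the invariant chain, had 1107, 945 and 925 CPM in demyelinated Cre+ libraries, against 2502, 2541 and 2311 CPM in demyelinated Cre- libraries. Naive levels of the gene were 129, 147 and 109 CPM in Cre+ libraries, against 108, 107 and 94.8 CPM in Cre- libraries. The Cre+ level in demyelination was well below Cre-, and the naive difference was small and not called, with an interaction of -1.62 ± 0.29 log2 (adjusted p = 0.00137). The antigen-binding chains H2-Aa, H2-Ab1 and H2-Eb1 and the class II transactivator Ciita were also lower in demyelinated Cre+ libraries, by effects of -1.82, -1.54, -1.89 and -1.21 log2, but their interactions were not called. H2-DMa, which loads peptides, had an interaction of 1.07 ± 0.16 log2 (adjusted p = 0.000182) and H2-Ob, its inhibitor chain, 1.25 ± 0.28 log2 (adjusted p = 0.00476), each with a called naive effect alone, and H2-Oa, its partner chain, had 0.66 log2, a call lost after the length and GC correction and without the 3 low-Cx3cr1 libraries. Of 15 class I genes, only Tap1, the peptide transporter, was called, with -0.50 log2, and it lost the call in 7 of 19 alternatives.

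Of 15 microRNA-pathway genes other than Dicer1, 8 were higher in naive Cre+ libraries, where 14.7% of all genes were. The interaction was called for 5, or 33.3% against 15.8% of all genes, namely Ago2, Ago4, Tnrc6a, Tnrc6b and Tnrc6c, each negative and each with a called naive effect alone, with list medians of 0.09 log2 in demyelination and 0.34 log2 in the naive state. The count was 3 without the 3 low-Cx3cr1 libraries and 3 after the length and GC correction. Ago2, the Argonaute that can cleave its target, had 27.7, 24.2 and 35.9 CPM in demyelinated Cre+ libraries, against 33.8, 31.0 and 25.2 CPM in demyelinated Cre- libraries. In naive mice it had 39.5, 40.2 and 41.8 CPM in Cre+ libraries, against 22.8, 17.1 and 16.5 CPM in Cre- libraries. The demyelinated groups overlapped and the naive groups were apart, with an interaction of -1.15 ± 0.19 log2 (adjusted p = 0.000418). Ago4 had -1.12 ± 0.19 log2 (adjusted p = 0.000561) and Tnrc6c, a GW182 scaffold of the silencing complex, -1.12 ± 0.20 log2 (adjusted p = 0.000841).

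The let-7 family is abundant in adult brain and was taken as the example of microRNAs that need Dicer, with a list of targets written from general knowledge. Members share the seed at bases 2 to 8, shown in capitals for 3 of them (RefSeq, GRCm38.p6).

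mmu-let-7a-5p: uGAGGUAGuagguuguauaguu
mmu-let-7d-5p: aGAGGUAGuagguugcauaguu
mmu-let-7i-5p: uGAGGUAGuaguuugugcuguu

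Mature microRNAs were not measured in these libraries. Of 22 let-7 targets tested, 11 were higher and 2 lower in naive Cre+ libraries, where 14.7% and 13.7% of all genes were. In demyelinated Cre+ libraries 2 were higher and 1 lower, where 5.69% and 3.48% of all genes were. The list medians were 0.20 log2 in demyelination and 0.46 log2 in the naive state. The interaction was called for 27.3% of the 22, against 15.8% of all genes. It was negative for Map4k3, Map4k4, Arid3b and Igf2bp2 and positive for Myc and Ccnd2, where 7.78% and 7.97% of all genes were. Arid3b, an AT-rich DNA-binding factor, had opposite effects, with 41.1, 39.2 and 46.5 CPM in demyelinated Cre+ libraries, against 48.0, 50.6 and 60.0 CPM in demyelinated Cre- libraries. In the naive state it had 117, 113 and 126 CPM in Cre+ libraries, against 81.8, 69.8 and 90.0 CPM in Cre- libraries. Its interaction was -0.88 ± 0.14 log2 (adjusted p = 0.000327). Arid3b kept its opposite calls in 4 of the 12 fits with a library left out. Map4k3, a kinase upstream of JNK, had -1.88 ± 0.31 log2 (adjusted p = 0.00072), from a demyelination effect of -0.54, not called, and a naive effect of 1.34 log2. The call of Igf2bp2 was lost without the 3 low-Cx3cr1 libraries.

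Among called genes with an official symbol and a mean log2 CPM of at least 2, the 10 largest positive interactions were those of Krt2, Rxrg, Cst7, Htra3, Tmem154, Olfr1330, Pcp4, Ccr1, Ctla2b and Hacd4, from 4.33 to 2.21 log2. Rxrg, a retinoid receptor gene, had 86.6, 21.3 and 56.4 CPM in demyelinated Cre+ libraries, against 12.3, 14.8 and 9.18 CPM in demyelinated Cre- libraries. Without cuprizone it had 1.08, 0.652 and 1.54 CPM in Cre+ libraries, against 3.62, 1.09 and 2.08 CPM in Cre- libraries. The naive groups overlapped at a low level, and the interaction of 3.20 ± 0.68 log2 (adjusted p = 0.00476) was 1.92 without the 3 low-Cx3cr1 libraries. Olfr1330, an olfactory receptor gene, had 41.3, 6.37 and 29.2 CPM in demyelinated Cre+ libraries, against 3.45, 1.83 and 1.32 CPM in demyelinated Cre- libraries, and its call was lost, at 1.10 log2, without the 3 libraries. Krt2, a keratin gene, was uneven, with 20.5, 11.9 and 1.62 CPM in demyelinated Cre+ libraries, against 6.522, 4.596 and 3.263 CPM in demyelinated Cre- libraries. Hacd4, an enzyme of very long fatty acid synthesis, had overlapping groups in demyelination and an interaction of 2.21 ± 0.46 log2 (adjusted p = 0.00424) from a naive effect of -2.28 log2.

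The 10 largest negative interactions were those of Cebpb, Otud1, Tesk1, Ano8, Postn, P3h2, Chst2, Csnk1g2, Crls1 and Kcnk12, from -5.23 to -2.70 log2. Cebpb, a transcription factor of myeloid activation, had 3.33, 6.51 and 41.1 CPM in demyelinated Cre+ libraries, against 62.7, 38.5 and 5.58 CPM in demyelinated Cre- libraries. Its naive level was 8.38, 32.1 and 39.3 CPM in Cre+ libraries, against 4.06, 0.716 and 0.627 CPM in Cre- libraries. Its demyelinated groups overlapped over most of their ranges, and the interaction of -5.23 ± 1.34 log2 (adjusted p = 0.0146) lost its call without naive Cre- replicate 2. Cebpb, Tesk1, Ano8, Csnk1g2, Crls1 and Kcnk12 lost the call both in the fit of only the 12 libraries and with the replicate block, whereas Otud1, Postn, P3h2 and Chst2 kept it in all 19 alternatives. Otud1, a deubiquitinase, had 20.03, 35.47 and 61.12 CPM in demyelinated Cre+ libraries, against 84.3, 77.5 and 36.4 CPM in demyelinated Cre- libraries. Among naive mice the level was 83.6, 107 and 133 CPM in Cre+ libraries, against 28.2, 8.24 and 10.3 CPM in Cre- libraries. Its interaction was -3.60 ± 0.60 log2 (adjusted p = 0.00126).

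These 10 genes varied together from library to library within groups. All 10 were highest in demyelinated Cre- replicate 1 and lowest in demyelinated Cre- replicate 3 of that group, against 36.1% and 44.6% of the 10433 well-measured genes. In demyelinated Cre+ libraries 8 were highest in replicate 3 and 8 lowest in replicate 1, against 19.6% and 25.1%. In the naive groups 9 were lowest in Cre+ replicate 1 and 9 highest in Cre- replicate 1, against 35.8% and 29.8%. The part of this shared variation in the interaction was not tested.

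**Figure D5:**
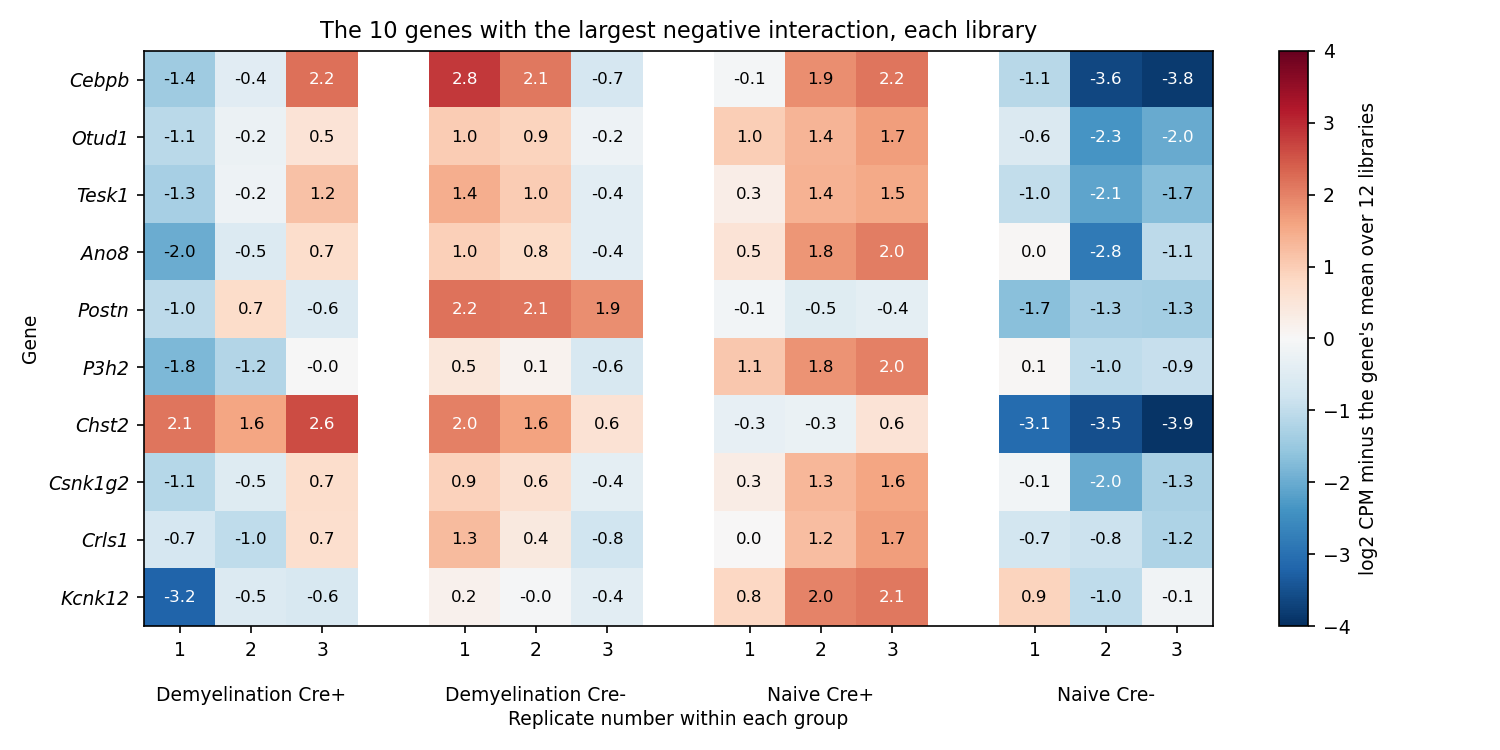
Level of the 10 genes with the largest negative interaction in each of the 12 libraries, as log2 CPM minus the gene's mean over the 12 libraries (colour and printed value), with replicates 1 to 3 of demyelinated Cre+, demyelinated Cre-, naive Cre+ and naive Cre- microglia from left to right. Each gene is highest in replicate 1 and lowest in replicate 3 of the demyelinated Cre- group, and Postn alone of the 10 has all 3 demyelinated Cre- libraries above all Cre+ libraries of both states.

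Mitosis genes had no called interaction. The 28 mitosis genes were higher in Cre+ libraries in both states, with 27 called in demyelination and 28 in the naive state. Their median effects were 1.59 and 1.56 log2. Of all genes, 5.69% and 14.7% were called higher in these states. With only the 12 naive and demyelination libraries in the fit, 16 and 21 of the 28 were called. Their interaction was called for 0 of 28 by edgeR, with 0 at an unadjusted p below 0.05 and 0 by the DESeq2 Wald test. The list's median interaction was 0.08 log2. That median ran from -0.35 to 0.40 log2 over the 12 fits with a library left out, in which 0 to 1 genes were called lower. It was -0.28 log2 without the 3 low-Cx3cr1 libraries. Cdk1, the main mitotic kinase, had 59.0, 52.9 and 49.9 CPM in demyelinated Cre+ libraries, against 23.9, 23.4 and 21.8 CPM in demyelinated Cre- libraries. Naive microglia had 5.94, 12.9 and 11.6 CPM in Cre+ libraries, against 5.49, 6.04 and 4.82 CPM in Cre- libraries, and its interaction was 0.32 ± 0.28 log2 (adjusted p = 0.507). Of 30 genes of DNA replication, 3 (10%) were called: E2f1 with -1.22 log2, Tyms with 0.66 and Pcna with 0.44 log2. Tyms lost its call without any of demyelinated Cre+ replicate 2, the 3 demyelinated Cre- libraries, naive Cre+ replicates 1 and 3, and naive Cre- replicates 2 and 3, and Pcna fell to 0.23 log2, not called, after the length and GC correction.

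Signalling lists had calls of both signs. Of 21 NF-kB and inflammasome genes 38.1% were called, against 15.8% of all genes tested, with 3 positive and 5 negative (2 and 2 without the 3 low-Cx3cr1 libraries, and 2 to 4 and 2 to 6 over the 12 fits with a library left out), including Nlrp3, the inflammasome sensor, with -0.83 ± 0.15 log2 (adjusted p = 0.000763), and Tlr2 with 0.73 ± 0.14 log2 (adjusted p = 0.00137). Of 21 TGF-beta genes 23.8% were called: Acvrl1, a type I receptor, was positive with 1.54 ± 0.25 log2 (adjusted p = 0.000509), and 4 were negative (2 to 4 over the 12 fits with a library left out), among them Smad6 with -1.73 and Smad7 with -0.81 log2. Of 18 heat shock genes 16.7% were called, a share near that of all genes. Hsp90aa1 had -0.86 ± 0.20 log2 (adjusted p = 0.0044), with called positive effects in both states, and Hspa5, the chaperone of the endoplasmic reticulum, had opposite effects and an interaction of 0.80 ± 0.17 log2 (adjusted p = 0.00212) that lost its call without the 3 low-Cx3cr1 libraries. Hspa5 kept its opposite calls in 4 of the 12 fits with a library left out. Of 21 immediate early genes 9.52% were called, namely Maff with 2.11 and Jund with -1.89 log2. The Jund call was lost in 12 of 19 alternatives, among them the fit of only the 12 libraries, the replicate block and 8 fits with a library left out, with a largest adjusted p of 0.126. Of 20 p53 targets 15% were called, a share near the 15.8% of all genes. They were Bax, Ccng1 and Phlda3 with 0.55, 0.49 and 1.60 log2, and each lost the call without the 3 low-Cx3cr1 libraries, with a range of 0 to 4 called genes over the 12 fits with a library left out.

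The sorted cells carried the markers of microglia in all 4 groups. Summed over 20 homeostatic microglia genes, the level was 76330 to 84440 CPM in demyelinated Cre+ libraries, against 69650 to 79220 CPM in demyelinated Cre- libraries. It was 122900 to 130000 CPM in naive Cre+ libraries, against 121300 to 130100 CPM in naive Cre- libraries. The interaction was called for 1 of the 20, or 5% against 15.8% of all genes. At an unadjusted p below 0.05 by edgeR there were 8 of the 20, against 5018 of all 17579 genes. The called gene was Fcrls, a microglial Fc receptor-like gene, with 1.40 ± 0.23 log2 (adjusted p = 0.000415) from a naive effect of -1.26 log2. In naive microglia 4 of the 20 were higher and 3 lower in Cre+ libraries, where 14.7% and 13.7% of all genes were. In demyelination 2 were higher and 0 lower, where 5.69% and 3.48% of all genes were. In such bulk libraries fewer cells of a type and less RNA per cell cannot be told apart.

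Markers of other cells differed between groups for some types. The 12 neutrophil markers summed to 1413 to 1768 CPM in demyelinated Cre+ libraries, against 231 to 969 CPM in demyelinated Cre- libraries. In naive mice the sum was 137 to 535 CPM in Cre+ libraries, against 169.5 to 514 CPM in Cre- libraries. The median effect of the 12 markers in demyelination was 1.23 log2, against -0.01 log2 over all genes, with 0 called higher and 0 called lower. No neutrophil marker was called in the interaction by edgeR (2 at an unadjusted p below 0.05, and 2 by the DESeq2 Wald test). The markers did not share one direction. Camp, a granule peptide, had 146, 132 and 109 CPM in demyelinated Cre+ libraries, against 11.9, 36.9 and 58.9 CPM in demyelinated Cre- libraries. Retnlg, a resistin-like gene of neutrophils, had 6.04, 5.57 and 6.53 CPM in demyelinated Cre+ libraries, against 10.6, 21.5 and 22.5 CPM in demyelinated Cre- libraries. The 10 monocyte markers summed to 487 to 817 CPM in demyelinated Cre+ libraries, against 237 to 381 CPM in demyelinated Cre- libraries. In naive mice the sum was 25.04 to 81.30 CPM in Cre+ libraries, against 38.4 to 84.0 CPM in Cre- libraries. Most monocyte markers did not go with the sum in demyelination, where their median effect was -1.15 log2. There 1 was called higher and 3 lower in Cre+ libraries, where 5.69% and 3.48% of all genes were. Fn1 had 560.5, 272 and 362 CPM in demyelinated Cre+ libraries, against 124, 162 and 88.4 CPM in demyelinated Cre- libraries. Ccr2, which marks recruited monocytes, had 24.3, 13.9 and 10.4 CPM in demyelinated Cre+ libraries, against 31.4, 57.0 and 56.1 CPM in demyelinated Cre- libraries. Plac8 had an interaction of -3.21 ± 0.73 log2 (adjusted p = 0.00617) and Fn1 of 2.14 ± 0.68 log2 (adjusted p = 0.0426), of which the Fn1 call was lost in 13 of 19 alternatives, 9 of them fits with a single library of any of the 4 groups left out.

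Of 10 border macrophage markers, F13a1, Lyve1 and Cd163 (30% of the list) had called negative interactions of -1.34, -1.86 and -1.52 log2, which were lost in 11, 10 and 12 of 19 alternatives. Their list summed to 277 to 311 CPM in demyelinated Cre+ libraries, against 343 to 445 CPM in demyelinated Cre- libraries, and to 340 to 399 CPM in naive Cre+ libraries, against 295 to 357 CPM in naive Cre- libraries. The 11 astrocyte markers summed to 284 to 379 CPM in demyelinated Cre+ libraries, against 342 to 495 CPM in demyelinated Cre- libraries, and to 340 to 389 CPM in naive Cre+ libraries, against 501 to 663 CPM in naive Cre- libraries. Cspg4, a mural and oligodendrocyte-precursor marker, was the only one of 12 endothelial and mural markers called, with 2.13 ± 0.63 log2 (adjusted p = 0.0272). It fell to 1.17 log2, not called, without naive Cre- replicate 2, and the call was also lost without naive Cre+ replicate 2, without the 3 low-Cx3cr1 libraries, with no filter on low counts, in the fit of only the 12 libraries and with the replicate block. That list summed to 203 to 245 CPM in demyelinated Cre+ libraries, against 135.5 to 173 CPM in demyelinated Cre- libraries, and to 38.4 to 63.3 CPM in naive Cre+ libraries, against 47.3 to 84.8 CPM in naive Cre- libraries. Markers of T, NK and B cells, oligodendrocytes, astrocytes, neurons and red cells had no called interaction by edgeR or by the DESeq2 Wald test, with 1 astrocyte gene at an unadjusted p below 0.05 and none of the others. Cd3e, Cd3d, Cd3g, Cd8a and Ms4a1 did not pass the filter on low counts. The part of these other cells in the gene groups above was not tested.

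The 137 opposite genes were then set beside the remyelination libraries, a look added after the data had been seen. These libraries lay outside the contrasts that chose the genes, but they shared the filter, the scaling and the spread estimates of the fit, and 119 opposite genes were called with only the 12 naive and demyelination libraries. With tamoxifen at the start of cuprizone feeding, the genotype effect in remyelination was called for 6 genes of 17579 (0.0341%), and for none of the 102 or the 35 by edgeR. Of these, 37 of the 102 and 3 of the 35 had an unadjusted p below 0.05. The share of all genes at that unadjusted p was not counted, so the 37 and the 3 are a description only. Of the 102 genes, 16 had a positive effect there, with a median of -0.19 log2 against -0.04 over all genes. With tamoxifen in the last weeks of cuprizone feeding the effect was called for 1935 genes (11%), and of the 102 genes 5 were higher and 4 lower in Cre+ libraries, with a median of -0.09 log2. Of the 35, 2 were higher and 1 lower. The difference between demyelination and remyelination was not tested. In remyelination the genotype effect of Cst7 was -0.64 ± 0.23 log2 with tamoxifen at the start (adjusted p = 0.358). Of the opposite genes named above, 5 had a called effect with tamoxifen late. Htra3 with 1.01 ± 0.30 log2 (adjusted p = 0.0367), Hspa5 with 0.47 ± 0.12 log2 (adjusted p = 0.00936) and Kcnj9 with -0.89 ± 0.21 log2 (adjusted p = 0.00633) had the sign of their demyelination effect. Ctsd with -0.67 ± 0.09 log2 (adjusted p = 3.12e-05) and Postn with 1.19 ± 0.34 log2 (adjusted p = 0.0338) had the other sign, which was the sign of their naive effect.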

How the data were processed

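The deposited values were raw counts per gene that the authors made from reads. Per the submitters' processing notes, Trimmomatic 0.36, STAR 2.5.2b, featureCounts (Subread 1.5.2) and DESeq2 were used on GRCm38; neither the strand setting nor the handling of reads with several matches is stated there. GENCODE M21 held 49056 of the 49315 identifiers.

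All 24 libraries in 8 groups were fitted with edgeR 4.0.16 (R 4.3.3, limma 3.58.1): filterByExpr, TMM, robust quasi-likelihood test, Benjamini-Hochberg adjustment over 17579 genes, threshold 0.05, 16 residual degrees of freedom. DESeq2 1.42.0 was an alternative. The groups were 3 replicates each. The p-values set a difference against a spread between replicates that was estimated over all 8 groups, remyelination included, and shared in part between genes. With only the 12 naive and demyelination libraries in the fit, the demyelination effect was called for 1284 genes, against 1612. The naive effect was then called for 4809 genes, against 4982. The fit was tested on simulated data.

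Genes were named by rule: Dicer1 and Cx3cr1, the 10 largest interactions per direction, the 8 opposite genes per direction with the largest smaller effect, and up to 4 per list with the smallest p. Members and gene lists were chosen with earlier results of these data known. The glycolysis list, the remyelination values and the fit without the low-Cx3cr1 libraries were added after seeing the data. Some genes are not reported here.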

Additional observations from a re-analysis of the deposited data

Results flagged for a closer look

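The genotype effect differed between demyelination and the naive state, by the test of the interaction itself, for 2769 genes. Among them were 102 genes higher in Cre+ libraries in demyelination and lower in the naive state, and 35 with the reverse order.

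Dicer1 itself was among these genes, with an interaction of -1.17 log2. The named opposite genes with a positive interaction were Cst7 (3.09 log2), Htra3 (3.02 log2), Tmem154 (2.98 log2), Pcp4 (2.69 log2), Ctla2b (2.25 log2), Hmgn3 (2.14 log2), Qpct (1.95 log2) and Rsad2 (1.93 log2). Those with a negative interaction were Postn (-3.25 log2), Cbx7 (-1.71 log2), Kcnj9 (-1.52 log2), Ptpn21 (-1.15 log2), Lrch4 (-1.13 log2), Crtc3 (-1.05 log2), Mapk14 (-0.99 log2) and Pkd1 (-0.96 log2).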

How the results depend on the processing

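Over the 12 fits that leave out a library the interaction was called for 1882 to 3006 genes (963 to 1515 positive, 919 to 1491 negative), the demyelination effect for 417 to 2114, the naive effect for 3734 to 5023 and opposite effects for 25 to 194 (17 to 141 and 8 to 53 by direction). Without the 3 low-Cx3cr1 libraries, chosen after seeing the data, the counts were 1631 for the interaction (939 positive, 692 negative), 81 for demyelination and 5 for opposite effects (4 and 1). Opposite genes numbered 212 with no filter (171 in the direction of Cst7), 252 by the DESeq2 Wald test (221) and 162 and 17 by direction with DESeq2 size factors, which moved the median of all interactions to 0.08 log2. The Cx3cr1 interaction was 0.0167 log2 without the low-Cx3cr1 libraries and -4.09 to -0.45 log2 over the fits that leave out a library; that of Dicer1 was -1.42 to -1.01 log2. The cause was not tested.

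The replicate block called 2492 genes, 2297 of them shared with the fit without it, and 132 opposite genes. Deviations of libraries with the same number correlated at -0.21, -0.06 and -0.34 in demyelination and -0.09, 0.07 and 0.25 in the naive state, so the numbers were not taken as pairs. The 12-library fit called 2434 genes. Of 102 named called genes none changed sign; 4 to 20 lost the call under the alternatives other than the Wald test. With 3 libraries per group and uneven Cre+ libraries, small effects in demyelination may go uncalled.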
